A study of Homo sapiens with 16 samples.

Results

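RNA-Seq was performed in cardiomyocytes made from human induced pluripotent stem cells (hiPSC-CMs) that had received a plasmid carrying LINC00881 or a control plasmid, to find which transcripts change when this long noncoding RNA is overexpressed. The comparison holds 8 of the 16 libraries of the series, chosen by their labels alone, with 4 LINC00881 overexpression libraries and 4 control overexpression libraries, which are called biological replicates. All 8 came from WTC-11, an established human induced pluripotent stem cell line, differentiated to beating cardiomyocytes, kept in RPMI medium with B27 supplement and used between day 15 and day 35. The LINC00881 group received a full-length human LINC00881 insert in an expression vector with the CMV promoter, a viral promoter that is active in most cell types, and the control group received a plasmid for bacterial alkaline phosphatase. Both plasmids were delivered by lipofection and cells were harvested 48 to 72 hours later. One line stands behind all 8 libraries, the sources do not say whether replicates were separate differentiations, and the share of cells that took up a plasmid is not given in the sources used here. The p-values below therefore measure only the spread between these libraries.

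Long noncoding RNAs are transcribed and often spliced like messenger RNAs but are not translated into a known protein. Many of those made in the heart come from super-enhancers, clusters of enhancers with strong activating chromatin marks around genes that define a cell type, and some bind chromatin-modifying proteins. Cardiomyocytes beat because calcium enters through L-type channels, triggers calcium release from the sarcoplasmic reticulum and binds troponin on the thin filament, so that myosin heads of the thick filament can pull on actin. Cardiomyocytes made from stem cells resemble fetal heart muscle. They carry atrial and embryonic isoforms of several sarcomere proteins and rely more on glucose than on fatty acids.

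LINC00881 (ENSG00000241135.5) lies on the plus strand of chromosome 3 from 157089881 to 157101135 (GRCh38, GENCODE release 29), and its exons overlap no other annotated gene. It has 3 annotated transcripts of 571 to 791 bases with 2 or 3 exons, which share their first 341 bases, and the transcript that was cloned is not given in the sources used here. The counts are per gene, so RNA from the plasmid and RNA from the chromosome cannot be told apart. The promoter window of LINC00881 (chr3:157089631-157089930, plus strand, GRCh38.p14, RefSeq) and its first exon (chr3:157089881-157090122, plus strand, GRCh38) are shown because this RNA is the one that was supplied, and the promoter windows of MYH6 (chr14:23408224-23408523, minus strand) and MYBPC3 (chr11:47352653-47352952, minus strand), from the same RefSeq table, because these thick filament genes were among those higher with LINC00881 plasmid. In the promoters, capitals mark AGATAA, which holds the core recognized by GATA factors, and TATAAA, the TATA box. In the exon they mark the 50 bases that also lie in the promoter window.
LINC00881 promoter: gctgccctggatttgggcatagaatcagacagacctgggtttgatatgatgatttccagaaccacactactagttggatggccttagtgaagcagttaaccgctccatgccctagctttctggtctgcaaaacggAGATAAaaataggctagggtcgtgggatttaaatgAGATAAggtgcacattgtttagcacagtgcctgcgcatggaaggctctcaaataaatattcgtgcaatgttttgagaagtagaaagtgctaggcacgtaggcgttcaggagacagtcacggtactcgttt
LINC00881 exon 1: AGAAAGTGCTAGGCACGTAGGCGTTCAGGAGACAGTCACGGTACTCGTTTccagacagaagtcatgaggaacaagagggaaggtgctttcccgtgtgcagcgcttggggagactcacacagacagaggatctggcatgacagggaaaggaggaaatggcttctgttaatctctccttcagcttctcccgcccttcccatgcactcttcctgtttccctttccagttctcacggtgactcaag
MYH6 promoter: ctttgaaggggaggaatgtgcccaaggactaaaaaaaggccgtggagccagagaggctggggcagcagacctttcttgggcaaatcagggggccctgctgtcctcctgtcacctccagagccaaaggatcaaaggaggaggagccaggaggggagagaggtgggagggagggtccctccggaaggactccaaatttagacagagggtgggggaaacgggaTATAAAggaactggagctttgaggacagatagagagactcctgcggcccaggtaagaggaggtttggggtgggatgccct
MYBPC3 promoter: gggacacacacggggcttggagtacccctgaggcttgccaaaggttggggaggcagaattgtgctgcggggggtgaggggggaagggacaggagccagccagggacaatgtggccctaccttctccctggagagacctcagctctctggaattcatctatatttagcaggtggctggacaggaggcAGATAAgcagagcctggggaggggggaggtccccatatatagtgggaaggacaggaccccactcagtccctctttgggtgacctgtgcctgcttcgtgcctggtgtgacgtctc
The LINC00881 window holds 2 AGATAA matches and no TATAAA, the MYH6 window 1 TATAAA, and the MYBPC3 window 1 AGATAA. Searched as AGATAA or its reverse complement TTATCT, the motif stood in 10.3% of all 35116 RefSeq windows of this length and in 6% of the 15632 windows of genes tested here. TATAAA or its reverse complement TTTATA stood in 11.5% and 6.3% of these windows. A match is a description of the letters and not evidence of a bound site.

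LINC00881 itself was 4.2-fold higher with the plasmid. It stood at 477.2, 452.3, 439.0 and 406.7 CPM (counts relative to the library total, with TMM scaling between libraries) in LINC00881 plasmid replicates 1 to 4, against 87.6, 142.9, 98.4 and 92.3 CPM in control plasmid replicates 1 to 4. Every LINC00881 plasmid library lay far above every control library, and control replicate 2 was the highest of its group. The means were 443.8 ± 29.4 CPM and 105.3 ± 25.5 CPM (SD, n = 4 libraries each), which is 2.07 on the log2 scale with a standard error of 0.13 (edgeR's quasi-likelihood test, adjusted p = 1.67e-06). It was the only gene that passed after Benjamini-Hochberg adjustment over all genes in this test. The exact permutation test of its CPM over libraries gave p = 0.0286 (2-sided), the smallest that 4 against 4 libraries allow. LINC00881 was also well detected without its plasmid, with 869 to 1910 raw counts in the control libraries.

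Total counts ran from 11272633 to 16415025 (median 13037786) with LINC00881 plasmid and from 9833533 to 13493729 (median 10880448) with control plasmid. The cells carried the RNA of cardiomyocytes, with 12 of 12 cardiomyocyte markers tested and a summed level of 36881.2 to 39142.5 CPM with LINC00881 plasmid, against 33389.3 to 36034.6 CPM with control plasmid. Fibroblast markers summed to 808.6 to 863.8 CPM against 723.5 to 794.6 CPM, smooth muscle markers to 741.5 to 850.3 CPM against 621.5 to 742.6 CPM, and endothelial markers to 223.7 to 242.4 CPM against 193.3 to 226 CPM. Hepatic and endodermal markers summed to 166.8 to 185.2 CPM with LINC00881 plasmid and to 115.7 to 298.6 CPM with control plasmid, the highest in control replicate 2. Leukocyte markers reached at most 0.182 CPM in either group, and markers of pluripotent, neural and epicardial cells summed to at most 14.6 CPM in any library. None of 20 library measures differed at an adjusted p under 0.05 by exact 2-sided permutation tests, whose smallest unadjusted p with 4 against 4 libraries is 0.0286. That unadjusted value was reached by the sums of cardiomyocyte and fibroblast markers and by mitochondrial rRNA (adjusted p = 0.19 for each, exact permutation test). In bulk samples, fewer cells of a type and less RNA per cell cannot be told apart.

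Calls at an unadjusted cutoff were many, and the changes were small. At an unadjusted p under 0.05 by edgeR's quasi-likelihood test, the cutoff used below, 1737 of 14355 genes tested differed (12.1%), with 843 higher (5.87%) and 894 lower (6.23%) with LINC00881 plasmid. If no gene differed, about 718 would be expected to pass this cutoff. The genes higher differed by a median of 1.19-fold and the genes lower by a median of 1.16-fold, and only 55 and 46 of them by more than 1.5-fold. The groups did not overlap for 546 genes on the higher side (3.8%) and 495 on the lower side (3.45%). Many genes named below were chosen partly because their groups did not overlap, so for them a gap is not further evidence. DESeq2 on the same counts gave 57 genes after adjustment (25 higher and 32 lower) and limma-voom 217 (126 higher and 91 lower), with 45 genes called by both. The number of genes past the unadjusted cutoff rested on single libraries, as the plot of counts by fit shows. It was 1010 without LINC00881 plasmid replicate 3, 1064 without control replicate 3, 1134 without LINC00881 plasmid replicate 1, and 2606 without control replicate 2, when 261 genes also passed after adjustment.

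**Figure D1:**
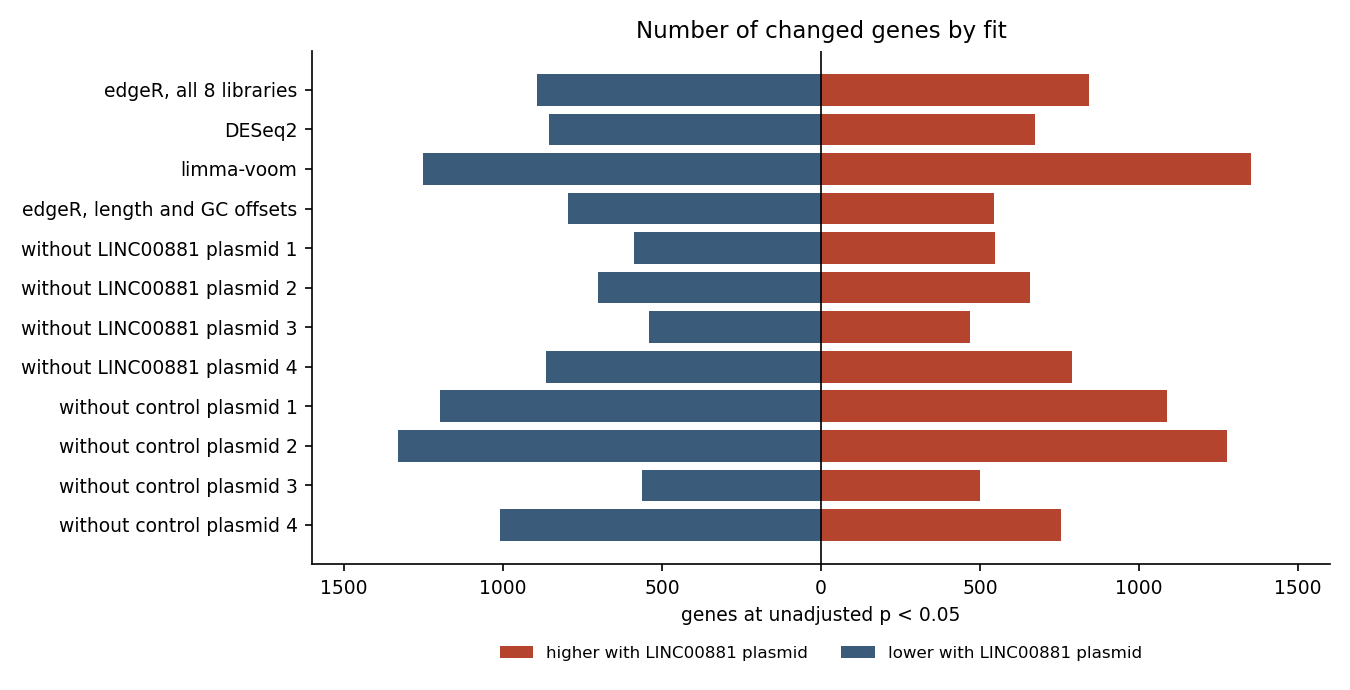
Number of genes (x axis) at an unadjusted p under 0.05 in each fit (y axis), with genes higher with LINC00881 plasmid in red to the right of 0 and genes lower in blue to the left. Bars are shortest without LINC00881 plasmid replicate 3, with 468 higher and 542 lower genes. The most higher genes came with limma-voom on all 8 libraries (1353 higher and 1252 lower). The most lower genes came without control replicate 2 (1276 higher and 1330 lower).

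The control libraries differed among themselves more than the LINC00881 plasmid libraries did. Of 10891 genes with a mean of at least 5 CPM, 80.5% had the larger spread in the control group, with a median SD of 0.0821 with LINC00881 plasmid and 0.142 with control plasmid on the log2 scale. Changes also followed the base composition of the genes. Genes were put in 10 equal bins ordered by the GC content of their longest transcript. The lowest bin had 3 higher and 306 lower genes, with a median log2 fold change of -0.11. In the highest bin 154 were higher and 3 lower, with a median of 0.11. Control replicate 3 stood furthest out, at 0.20 above the mean of all libraries in the lowest bin and 0.30 below it in the highest (medians on the log2 scale). Over 13585 genes the log2 fold change had a Spearman rho with GC content of 0.495, and of 0.271 without control replicate 3. Exonic length showed no such relation between the groups (rho 0.00603), but single libraries had trends with it. From the shortest to the longest of 10 length bins, control replicate 2 ran from 0.10 to -0.10 and LINC00881 plasmid replicate 4 from -0.06 to 0.06.

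**Figure D2:**
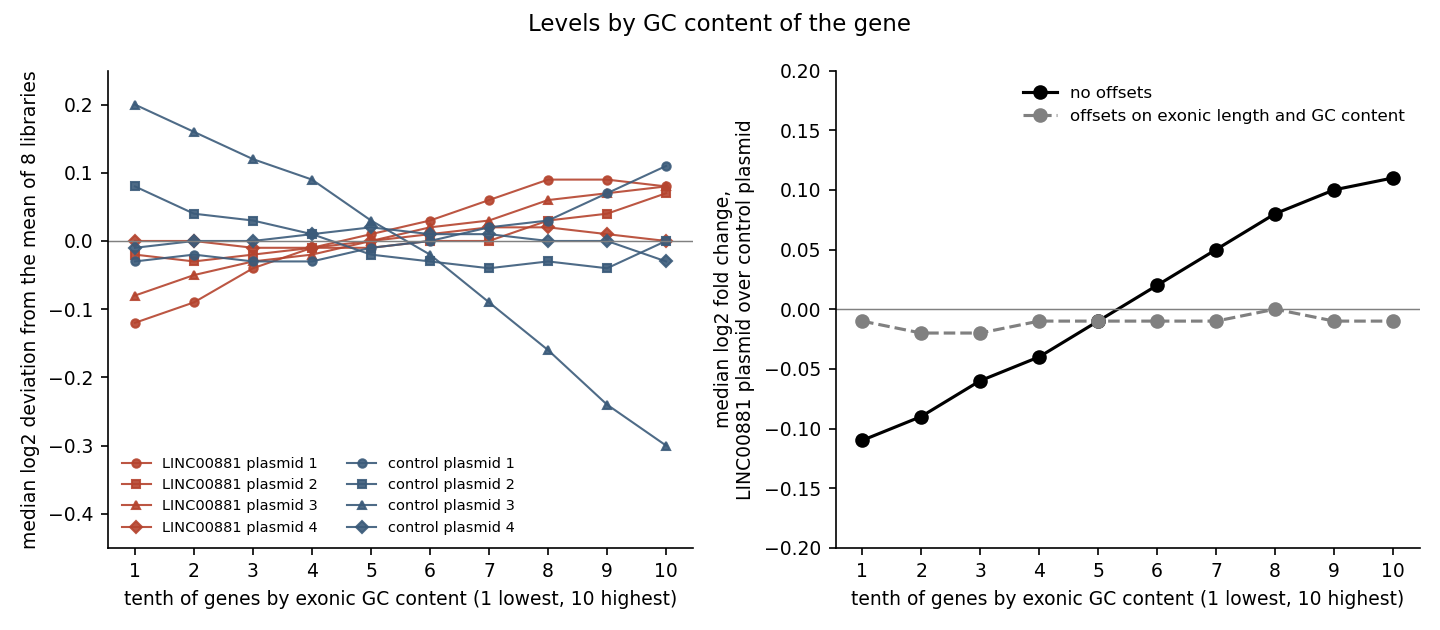
Left, median log2 deviation of each library (red lines LINC00881 plasmid, blue lines control plasmid) from the mean of all 8 libraries, in 10 equal bins of genes ordered by GC content of the longest transcript (x axis). Right, median log2 fold change of LINC00881 plasmid over control plasmid in the same bins, which runs from -0.11 to 0.11 without offsets (black) and lies between -0.02 and 0 with offsets on exonic length and GC content (gray).

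The main results below are therefore also given from a second edgeR fit with offsets that remove smooth trends with exonic length and GC content in each library. With these offsets 543 of 13585 genes were higher (4%) and 795 were lower (5.85%), and 851 of them were among the genes called without offsets. Offsets on length alone left 709 higher and 1211 lower genes, so that 36.9% of the calls were higher, against 48.5% without offsets. A gene is said below to hold where it passed the cutoff in the same direction without and with the length and GC offsets, in DESeq2, with the replicate number as a block and whichever library was left out. Of all genes tested, 191 held on the higher side (1.33%) and 236 on the lower side (1.64%). The part of the GC trend in the calls without offsets was not tested beyond this fit. Counts of list members below stand beside the shares over all genes tested. These were 5.87% higher and 6.23% lower without offsets, and 4% and 5.85% with them.

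Genes of the thick filament, the myosin assembly that generates force, had calls mostly on the higher side. Of 14 genes for the thick filament and its regulators, 5 were higher (35.7%) and 1 lower (7.14%). Their median log2 fold change was 0.12, against 0.00 over all genes tested. With the length and GC offsets 4 were higher and 1 lower, with a median of 0.08, and 4 were higher and 1 lower without control replicate 3. The higher count was 9 without control replicate 2. The list was chosen with earlier results of these data known. MYH6, which encodes the fast alpha isoform of cardiac myosin heavy chain, stood at 5515.9, 5455.1, 5722.3 and 5182.1 CPM with LINC00881 plasmid, against 4055.9, 4482.6, 3851.5 and 4694.7 CPM with control plasmid. All LINC00881 plasmid libraries exceeded all control libraries, and the closest pair was replicate 4 of each group. The log2 fold change was 0.36 with a standard error of 0.07 (adjusted p = 0.243 by edgeR and 0.00218 by DESeq2), and 0.24 with the offsets. MYBPC3, the gene of the cardiac myosin-binding protein C, a regulator of how myosin heads are released, stood at 1105.4, 1117.2, 1150.9 and 1082.3 CPM, against 835.6, 1008.4, 728.1 and 907.2 CPM. Its LINC00881 plasmid libraries lay within a narrow range above a wide control range that was lowest in replicate 3. It was higher by 0.36 with a standard error of 0.08 (adjusted p = 0.243 by edgeR and 0.0219 by DESeq2), and 0.25 with the offsets.

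The gene of the slow heavy chain did not pass the cutoff. MYH7, which encodes the beta isoform that prevails in the adult human ventricle, averaged 7609.1 CPM with LINC00881 plasmid and 7518.7 CPM with control plasmid (log2 fold change 0.02, standard error 0.07). MYH6 therefore made up 40.8%, 43.4%, 43% and 40.1% of the counts of both heavy chain genes in the LINC00881 plasmid libraries, against 35.1%, 37.5%, 36% and 36.3% in the control libraries (41.8 ± 1.62 and 36.2 ± 0.98, SD, n = 4 each). This share was computed after the values of both genes had been seen and is given without a test. MYH7B, a less abundant slow-type myosin gene, was higher as well (71.8 ± 4.29 CPM against 57.4 ± 7.07 CPM, SD, n = 4 each; log2 fold change 0.32, and 0.18 with the offsets), with exons that overlap TRPC4AP on the other strand. MYL2, the regulatory light chain of ventricular myosin, was the thick filament gene that was lower, at 15.3, 13.4, 12.9 and 12.8 CPM against 16.4, 18.5, 13.6 and 15.8 CPM. Its groups overlapped, the log2 fold change was -0.25 with a standard error of 0.11 (adjusted p = 0.374 by edgeR), and the call was lost in 4 of the 8 fits that left out a library, at -0.18 without control replicate 2 and -0.25, -0.23 and -0.22 without LINC00881 plasmid replicates 2, 3 and 4.

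**Figure D3:**
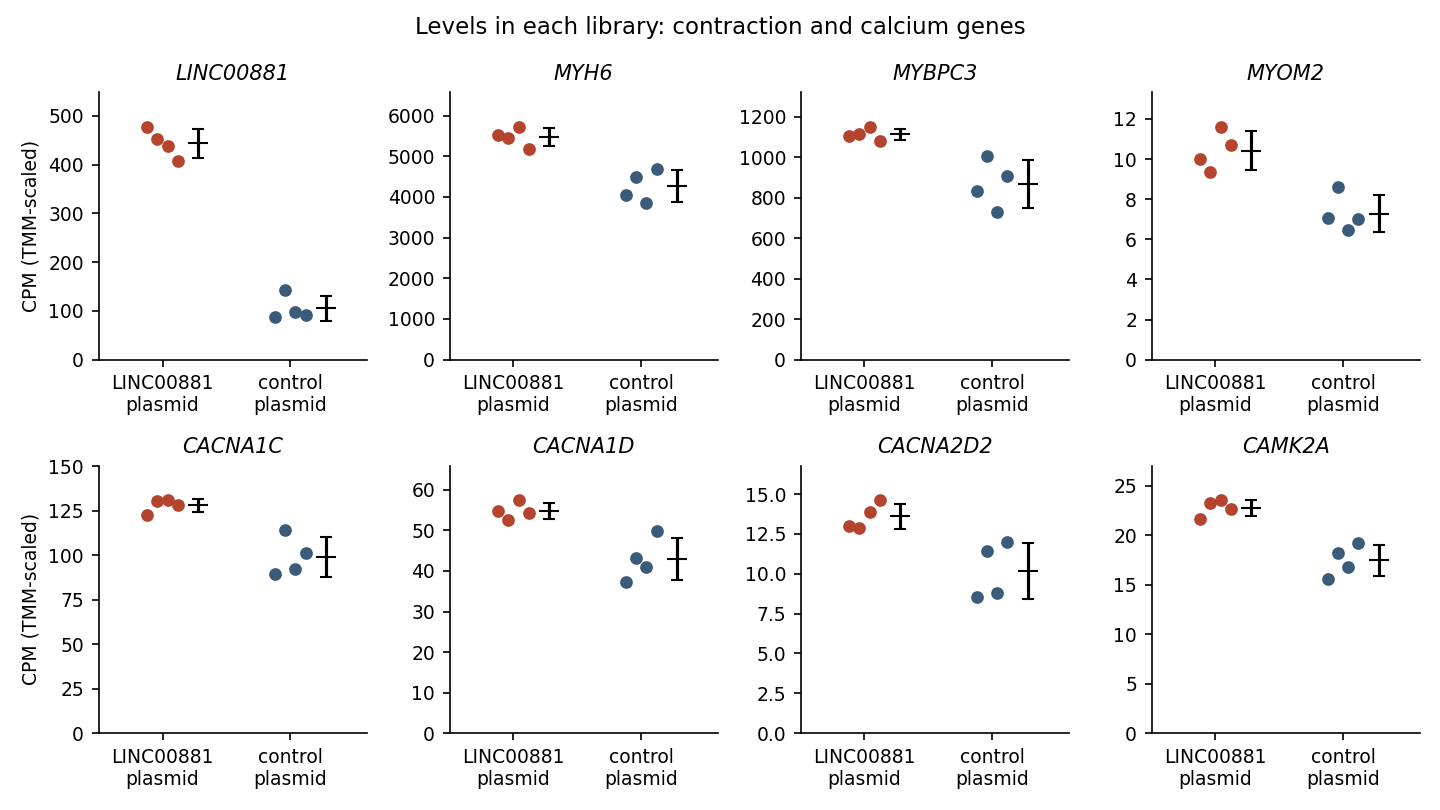
TMM-scaled CPM (y axis, from 0) of LINC00881, MYH6, MYBPC3, MYOM2, CACNA1C, CACNA1D, CACNA2D2 and CAMK2A in each of the 4 LINC00881 plasmid libraries (red) and the 4 control plasmid libraries (blue), with the mean and SD of each group in black. The groups do not overlap in any of the 8 panels, and the control points are the more widely spread in most of them.

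The M-band, which crosslinks thick filaments at the middle of the sarcomere, also had members on the higher side, with 5 of 10 higher and 0 lower and a median log2 fold change of 0.17. The number was 3 without control replicate 3 and 8 without control replicate 2. Only 1 of the 5 passed with the length and GC offsets, MYOM2, which encodes the M-band protein myomesin 2. It stood at 10.0, 9.36, 11.6 and 10.7 CPM with LINC00881 plasmid and at 7.06, 8.6, 6.44 and 7.03 CPM with control plasmid. Its groups stayed apart, with control replicate 2 the nearest, and the gene was higher by 0.52 with a standard error of 0.13 (adjusted p = 0.243 by edgeR), or by 0.43 with the offsets. OBSL1, which encodes a cytoskeletal linker protein, was higher by 0.24 (standard error 0.08) without offsets and did not pass with them, at 0.09. It is rich in GC (66.5%) and overlaps a transcript on the other strand.

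The thin filament and the Z-disc showed calls in both directions. Of 20 thin filament genes 6 were higher (30%) and 3 lower (15%) without offsets, and 2 were higher and 4 lower with them. The higher count was 2 without LINC00881 plasmid replicate 3 and 9 without control replicate 2. ACTC1, the cardiac actin gene, stood at 5234.4, 5190.7, 5331.2 and 4795.9 CPM against 3756.9, 5059.7, 3546.4 and 4232.2 CPM, so that LINC00881 plasmid replicate 4 fell below control replicate 2. Its log2 fold change was 0.31 (standard error 0.09), and 0.33 with the offsets. TNNT2, the cardiac troponin T gene, was higher by 0.34 (standard error 0.10) and by 0.28 with the offsets, where it just missed the cutoff. The embryonic troponin I gene TNNI1 was higher by 0.18 (standard error 0.09), but kept that call in only 2 of the 8 fits that left out a library. LMOD2 and LMOD3, which encode leiomodins that set the length of actin filaments, were lower by 0.17 and 0.22 on the log2 scale, and kept that call in 5 and 6 of these 8 fits. Exons of ACTC1 and TNNI1 overlap unnamed transcripts on the other strand and those of TNNT2 the gene LAD1 on the same strand.

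Of 23 genes of the Z-disc and I-band 1 was higher (4.35%) and 4 were lower (17.4%), and with the offsets 1 and 5. In this region thin filaments are anchored and stretch is sensed. CSRP3, which encodes the muscle LIM protein, stood at 228.1, 208.8, 214.2 and 205.2 CPM with LINC00881 plasmid, against 226.1, 290.7, 241.9 and 233.2 CPM with control plasmid. ANKRD1, which encodes a stress-responsive ankyrin repeat protein that binds titin, stood at 800.4, 755.5, 736.2 and 786.4 CPM against 774.1, 1010.1, 976.5 and 814.0 CPM. In both genes LINC00881 plasmid replicate 1 lay above control replicate 1, so the groups overlapped, although both held. CSRP3 was lower by 0.21 (standard error 0.08) and ANKRD1 by 0.22 (standard error 0.08) on the log2 scale. SYNPO2L, a Z-disc gene, was lower by 0.23 (standard error 0.08), and by 0.33 with the offsets. LDB3, which encodes a Z-disc protein that binds alpha-actinin, was the gene on the higher side (0.17, standard error 0.07), and it missed the cutoff with the offsets at 0.10 and in 4 of the 8 fits that left out a library. SYNPO2L exons overlap an unnamed transcript on the other strand. None of 10 genes of the dystrophin-associated complex, which ties the actin cytoskeleton to the cell membrane, passed in either direction. Of 16 intercalated disc genes 1 was higher and 1 lower (6.25% each). Lists this short would hold few calls or none at the shares of all genes tested (5.87% and 6.23%).

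Of 9 subunit genes of L-type and T-type channels 3 were higher and 0 lower in both fits, and in every fit that left out a library at least 3 were higher. The median log2 fold change of the list was 0.18, and 0.07 with the offsets. CACNA1C, which encodes the pore of the main L-type channel of heart muscle, stood at 122.5, 130.5, 130.8 and 128.0 CPM with LINC00881 plasmid, against 89.2, 114.1, 92.2 and 101.4 CPM with control plasmid. The lowest LINC00881 plasmid library exceeded the highest control library, replicate 2. It was higher by 0.36 on the log2 scale, with a standard error of 0.08 (adjusted p = 0.243 by edgeR and 0.0107 by DESeq2), and by 0.25 with the offsets. CACNA1D, which encodes the L-type pore typical of pacemaker and atrial cells, stood at 54.8, 52.5, 57.4 and 54.4 CPM against 37.4, 43.2, 41.1 and 49.9 CPM. Control replicate 4 was the closest to the LINC00881 plasmid libraries, and the gene was higher by 0.35 with a standard error of 0.08 (adjusted p = 0.243 by edgeR and 0.0312 by DESeq2). CACNA2D2, an accessory subunit gene, was also higher, at 13.0, 12.9, 13.9 and 14.6 CPM against 8.57, 11.4, 8.82 and 12.0 CPM (log2 fold change 0.40, standard error 0.12). Exons of all 3 genes overlap genes on the other strand, among them antisense transcripts of CACNA1C, and counts without strand cannot separate these.

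No gene of calcium release and storage was lower. Of 19 genes for calcium cycling of the sarcoplasmic reticulum 5 were higher (26.3%) and 0 lower, with a median log2 fold change of 0.09. With the offsets 3 were higher (median 0.08). The 5 fell to 3 or fewer whenever a library other than control replicate 2 was left out, and to 1 without LINC00881 plasmid replicate 1 or 3. RYR2, the gene of the channel through which that calcium is released, stood at 769.4, 738.8, 771.5 and 798.7 CPM against 689.8, 593.3, 718.1 and 732.9 CPM. Its groups did not overlap, but LINC00881 plasmid replicate 2 and control replicate 4 nearly met. The log2 fold change was 0.17 with a standard error of 0.07 (adjusted p = 0.355 by edgeR), and 4 of the 8 fits that left out a library lost the call, at 0.11 without control replicate 2 and 0.17, 0.17 and 0.15 without LINC00881 plasmid replicates 1, 3 and 4. ATP2A2, the gene for the pump that returns calcium to the reticulum, averaged 2633.9 CPM against 2377.6 CPM (0.15, standard error 0.07) and missed the cutoff with the offsets (0.10), and kept its call in only 2 of the 8 fits that left out a library. CALR, which encodes the calcium-binding chaperone calreticulin, was the member that held, at 374.8, 345.3, 399.3 and 328.8 CPM against 279.4, 311.3, 265.9 and 306.1 CPM (log2 fold change 0.32, standard error 0.07; 0.26 with the offsets). Of 19 kinase and phosphatase genes of calcium signaling 4 were higher (21.1%) and 1 lower (5.26%). CAMK2A, a calmodulin-dependent kinase gene better known from neurons, stood at 21.6, 23.2, 23.5 and 22.6 CPM against 15.6, 18.2, 16.8 and 19.2 CPM, with a gap between the groups and a log2 fold change of 0.38 (standard error 0.09; 0.28 with the offsets). Exons of CALR and CAMK2A overlap genes on the other strand.

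Among channels for other ions, 3 of 18 sodium, potassium and pacemaker channel genes were higher (16.7%) and 0 lower. The 3 were KCNJ5, KCNIP2 and KCNQ1, and 2 were higher without LINC00881 plasmid replicate 2 or 3 or control replicate 3 or 4. KCNJ5, a subunit of the acetylcholine-activated potassium channel of atrial and nodal cells, stood at 102.8, 99.6, 105.2 and 98.2 CPM against 88.3, 86.9, 82.0 and 92.3 CPM (log2 fold change 0.22, standard error 0.07). The groups did not overlap and the gene held. KCNIP2, an accessory subunit of the transient outward current, was higher by 0.23 (standard error 0.07). KCNQ1, the pore of the slow delayed rectifier, was higher by 0.30 (standard error 0.13), with overlapping groups, and missed the cutoff with the offsets (0.18). KCNH7, a relative of the hERG channel gene that is outside this list, was higher by 0.50 (standard error 0.12). FXYD6, which encodes a small regulator of the sodium pump, had the smallest p after LINC00881 among all genes tested by edgeR (adjusted p = 0.243). It stood at 59.0, 60.7, 56.7 and 53.5 CPM with LINC00881 plasmid, against 43.3, 44.9, 38.1 and 46.0 CPM with control plasmid. Every LINC00881 plasmid library was above every control library, by 0.41 on the log2 scale with a standard error of 0.08 (adjusted p = 0.00218 by DESeq2), or by 0.30 with the offsets. Exons of KCNH7, KCNIP2, KCNQ1 and FXYD6 overlap genes on the other strand.

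Enzymes and transporters of fatty acid use were higher in part and none was lower. Of 47 genes for fatty acid uptake and oxidation 12 were higher (25.5%) and 0 lower, with a median log2 fold change of 0.09. With the offsets the numbers were 11 and 0, with a median of 0.06. Without control replicate 3 or LINC00881 plasmid replicate 3, 6 were higher. ACACB, whose product makes the malonyl-CoA that restrains entry of fatty acids into mitochondria, stood at 86.9, 85.4, 89.1 and 91.9 CPM against 73.7, 77.5, 70 and 73.8 CPM. The groups were well apart, by 0.26 on the log2 scale with a standard error of 0.07 (adjusted p = 0.0312 by DESeq2), and by 0.14 with the offsets. ACADS, the dehydrogenase gene for short chains, was at 36.2, 34.4, 35.1 and 31.6 CPM against 27.8, 32.0, 21.8 and 25.9 CPM, lowest in control replicate 3 (log2 fold change 0.35, standard error 0.10). CRAT, the carnitine acetyltransferase gene, stood at 82.9, 81.8, 81.0 and 80.6 CPM against 72, 70.8, 60 and 72.7 CPM. PPARD, which encodes a nuclear receptor that senses fatty acids, was at 30.7, 28.6, 29.7 and 28.5 CPM against 25.7, 25.3, 19.5 and 25 CPM. In both genes the groups did not overlap and control replicate 3 was far below the other controls, and their log2 fold changes of 0.24 and 0.30 were 0.13 and 0.19 with the offsets. CRAT exons overlap PTPA on the other strand.

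Of 39 genes for glycolysis and glucose handling 9 were higher (23.1%) and 1 lower (2.56%), and 3 and 2 with the offsets. The higher count was 15 without control replicate 2 and 4 without control replicate 3 or LINC00881 plasmid replicate 1 or 3. PFKM and PFKP, the muscle and platelet forms of phosphofructokinase that commit glucose to glycolysis, were higher by 0.19 (standard error 0.07) and 0.22 (standard error 0.08), and PYGM, the muscle glycogen phosphorylase gene, by 0.22 (standard error 0.07). All 3 genes held. PFKM stood at 434.1, 402.9, 433.7 and 400.8 CPM against 368.8, 361.8, 334.7 and 397.1 CPM. Its groups did not overlap but replicate 4 of each nearly met, and its exons overlap SENP1 on the other strand.

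Of the cholesterol synthesis genes none was lower, with 9 of 24 higher and 22 with a positive log2 fold change. The median was 0.18, and with the offsets 0.15, when 6 were higher. The number ran from 3 (without control replicate 3) to 18 (without control replicate 2) over the fits that left out a library. LSS, the lanosterol synthase gene, whose product closes the sterol rings, stood at 88.4, 82.4, 85.1 and 79.1 CPM with LINC00881 plasmid and at 63.9, 76.7, 50.4 and 66.6 CPM with control plasmid. The groups did not overlap, and controls 2 and 3 were the highest and lowest of all controls. LSS was higher by 0.37 with a standard error of 0.09 (adjusted p = 0.047 by DESeq2), and by 0.25 with the offsets. MVK, the mevalonate kinase gene, stood at 52.4, 49.2, 49.2 and 43.1 CPM against 39.4, 43.7, 33.4 and 39.2 CPM (log2 fold change 0.31), and EBP, a sterol isomerase gene, at 13.9, 12.3, 13.4 and 13.3 CPM against 9.17, 12.6, 9.21 and 8.52 CPM (log2 fold change 0.41). In each of them 1 LINC00881 plasmid library fell below control replicate 2. Exons of LSS and MVK overlap genes on the other strand.

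Genes of the extracellular matrix had calls mostly on the higher side. Of 28 collagen genes 12 were higher and 0 lower, with a median log2 fold change of 0.23, and of 42 genes for laminins, other basement membrane proteins and integrins 19 were higher and 1 lower, with a median of 0.17. With the length and GC offsets the numbers were 5 and 0 for collagens and 10 and 1 for the basement membrane list, and without control replicate 3 they were 10 and 0, and 14 and 1. The basement membrane list had 10 and 11 higher genes without LINC00881 plasmid replicates 3 and 2, and 12 without control replicate 1. Of the markers tested of fibroblasts, smooth muscle and endothelium, cells that make much of the matrix, 3 of 8, 3 of 7 and 1 of 2 were higher and none was lower, with the summed levels given above, in which the fibroblast sums did not overlap. Cardiomyocyte markers had 4 of 12 higher and 0 lower as well, and their sums did not overlap either. The part of matrix-making cells in these results was not tested. COL6A1, an alpha chain of the microfibrillar collagen VI, stood at 66.0, 78.8, 76.9 and 64.4 CPM against 53.9, 63.5, 40.2 and 52.4 CPM. LINC00881 plasmid replicate 4 was just above control replicate 2, and control replicate 3 was the lowest (log2 fold change 0.44, standard error 0.11; 0.32 with the offsets). COL5A1, a chain of collagen V that controls fibril width, was higher by 0.33 (standard error 0.09), at 30.8, 34.6, 33.8 and 30.5 CPM against 27.5, 26, 22.7 and 26.8 CPM. COL1A2, a chain of collagen I and the chief product of fibroblasts, was higher by 0.24 (standard error 0.09).

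The basement membrane is the sheet of laminin, nidogen, perlecan and collagen IV around each cardiomyocyte. NID2, the nidogen 2 gene, stood at 330.1, 332.5, 361.7 and 341.7 CPM with LINC00881 plasmid, against 266.3, 266.0, 259.4 and 318.4 CPM with control plasmid. Control replicate 4 stood apart from the other controls but below all LINC00881 plasmid libraries (log2 fold change 0.30, standard error 0.07, adjusted p = 0.027 by DESeq2; 0.24 with the offsets). LAMB2, the laminin beta 2 gene, stood at 359.4, 343.3, 356.3 and 317.4 CPM against 271.6, 312.0, 227.4 and 296.8 CPM, with LINC00881 plasmid replicate 4 close to control replicate 2 (log2 fold change 0.31, standard error 0.08). HSPG2, the perlecan gene, was higher by 0.29 (standard error 0.07) but fell just short with the offsets (0.12). VCAN, which encodes versican, a proteoglycan of the cardiac jelly and valves, and FN1, the fibronectin gene, were higher by 0.22 (standard error 0.06) and 0.19 (standard error 0.07) and kept 0.22 and 0.20 with the offsets. ITGB6, an epithelial integrin subunit gene near 2 CPM, was the member that was lower (-0.64, standard error 0.24). Exons of NID2, HSPG2 and VCAN overlap genes on the other strand.

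ACTA2, the smooth muscle actin gene, which immature cardiomyocytes also express, stood at 401.7, 369.6, 397.2 and 347.4 CPM against 251.0, 343.1, 285.9 and 321.8 CPM. The groups were separated by a few CPM between LINC00881 plasmid replicate 4 and control replicate 2, and the log2 fold change was 0.33, with a standard error of 0.08 (adjusted p = 0.047 by DESeq2; 0.29 with the offsets). CNN1, a smooth muscle calponin gene, was higher by 0.26 (standard error 0.09). A2M, which encodes a secreted protease inhibitor, stood at 767.1, 715.3, 795.8 and 699.6 CPM against 482.1, 658.8, 556.4 and 620.6 CPM, with no overlap (log2 fold change 0.36, standard error 0.08, adjusted p = 0.027 by DESeq2; 0.33 with the offsets). Exons of ACTA2 and A2M overlap antisense genes.

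Guidance cues, which steer axons and also migrating heart and vessel cells, had 11 of 58 genes higher (19%) and 1 lower (1.72%). With the offsets the numbers were 10 and 1. Without LINC00881 plasmid replicate 3 they were 7 and 0, and without control replicate 2 they were 9 and 5. Of the genes called, 5 held. UNC5B, a netrin receptor gene of endothelial and other cells, stood at 124.7, 125.9, 128.6 and 121.8 CPM against 105.0, 109.1, 94.4 and 108.6 CPM, clearly apart (log2 fold change 0.26, standard error 0.07, adjusted p = 0.0297 by DESeq2; 0.14 with the offsets). TENM4, a teneurin adhesion receptor gene, was at 58.5, 64.6, 62.1 and 63.0 CPM against 48.9, 50.6, 49.6 and 56.9 CPM, and SLIT3, a secreted ligand of Robo receptors, at 72.5, 64.3, 69.1 and 64.1 CPM against 52.9, 55.8, 54.1 and 62.0 CPM. In TENM4 and SLIT3 control replicate 4 came closest to the LINC00881 plasmid libraries, and the log2 fold changes of 0.27 and 0.26 were 0.15 for each with the offsets. EFNB2, the ephrin-B2 gene of arterial cells, was the member that was lower (-0.20, standard error 0.09), a call kept in only 3 of the 8 fits that left out a library. SLIT3 exons overlap genes on the other strand.

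Of 13 mitochondrially encoded protein genes, which supply core subunits of the respiratory chain, 11 were lower and 0 higher, with a median log2 fold change of -0.22, and all 13 values were negative. With the length and GC offsets 3 were lower, with a median of -0.17. Without offsets the number was 7 without LINC00881 plasmid replicate 3 and 6 without control replicate 3. MT-CO2, a subunit of cytochrome c oxidase, stood at 5045.3, 4817.7, 4766.0 and 4747.6 CPM against 5547.8, 5214.4, 6181.1 and 5598.5 CPM. The groups did not overlap, control replicate 3 was the highest, and MT-CO2 was lower by 0.22 (standard error 0.07; 0.19 with the offsets) on the log2 scale. MT-ND4L, a subunit of complex I, stood at 1043.1, 1054.6, 994.1 and 1044.2 CPM against 1191.1, 1068.0, 1612.3 and 1224.9 CPM. Its LINC00881 plasmid libraries were alike, its controls ranged widely, and it shares sequence with MT-ND4 on the same strand (log2 fold change -0.30, standard error 0.09).

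The large ribosomal RNA MT-RNR2 and the small one MT-RNR1, named after their values were seen, were lower by 0.29 and 0.24 on the log2 scale (standard errors 0.07 each), and mitochondrial rRNA took 0.865 ± 0.0289% of counts with LINC00881 plasmid and 1.04 ± 0.0801% with control plasmid (SD, n = 4 each). The part of library preparation in the rRNA levels was not tested. Of 8 mitochondrial tRNA genes tested 3 were lower and 0 higher. MT-TG, the glycine tRNA, stood at 0.653, 0.353, 0.547 and 0.576 CPM against 1.21, 1.57, 0.892 and 1.41 CPM, few counts but without overlap (log2 fold change -1.25, standard error 0.31). The share of counts in mitochondrially encoded proteins was 4.54%, 4.49%, 4.27% and 4.41% with LINC00881 plasmid, against 5.09%, 4.36%, 5.45% and 5.21% with control plasmid, so that control replicate 2 lay among the LINC00881 plasmid libraries and a difference was not shown (p = 0.114, exact permutation test). Of 78 nuclear genes for the respiratory chain and ATP synthase 6 were higher (7.69%) and 4 lower (5.13%), near the 5.87% and 6.23% of all genes. These counts moved with single libraries, with 19 higher without control replicate 2 and 2 without LINC00881 plasmid replicate 1, and with 20 lower without control replicate 1 and 1 without control replicate 3 or LINC00881 plasmid replicate 4. Of 76 genes for the mitochondrial ribosome 0 were higher and 7 lower (9.21%). But 8 were higher and 0 lower without control replicate 2, and 5 were higher and 12 lower without control replicate 1. Without LINC00881 plasmid replicate 4, 0 were lower. NDUFV1, a complex I subunit gene, was higher by 0.27 (standard error 0.09), and CYCS, the cytochrome c gene, was lower by 0.21 (standard error 0.08) on the log2 scale. NDUFV1 exons overlap other transcripts on both strands.

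Genes that build ribosomes had calls on the lower side alone, without and with the offsets. Of 84 genes for RNA polymerase I and ribosome biogenesis 16 were lower and 0 higher, and 13 and 0 with the offsets. The lower count was 10 without control replicate 3, and 3 were higher without control replicate 1. The median of the list was only -0.05 (-0.07 with the offsets), and 7 of its genes held. POLR1F, a subunit of the polymerase that transcribes ribosomal RNA genes, stood at 40.4, 47.5, 39.5 and 43.1 CPM with LINC00881 plasmid, against 51.1, 54.1, 61.8 and 54.0 CPM with control plasmid. LINC00881 plasmid replicate 2 was the highest of its group but below all controls, and POLR1F was lower by 0.38 (standard error 0.08, adjusted p = 0.0134 by DESeq2), and by 0.26 with the offsets. RIOK2, a kinase gene of late small subunit maturation, stood at 77.1, 83.0, 75.9 and 78.0 CPM against 89.2, 97.9, 103.6 and 94.1 CPM, again without overlap (log2 fold change -0.30, standard error 0.07, adjusted p = 0.018 by DESeq2; -0.18 with the offsets). NOP58, a core protein of the snoRNPs that methylate ribosomal RNA, was at 85.1, 84.6, 80.4 and 81.2 CPM against 86.6, 105.2, 105.8 and 94.9 CPM, with replicate 1 of each group close together (log2 fold change -0.25, standard error 0.07). TAF1D, a factor of the polymerase I promoter complex and a snoRNA host gene, was lower by 0.33 (standard error 0.08). Exons of RIOK2 and TAF1D overlap genes on the other strand, and TAF1D and NOP58 hold small RNA genes on their own strand. Of 83 cytoplasmic ribosomal protein genes 1 was higher (1.2%) and 3 were lower (3.61%), RPL11, RPL14 and RPL23A, at -0.25 each. The number of lower ones depended on the controls, at 23 without control replicate 1 and 9 without control replicate 4.

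**Figure D4:**
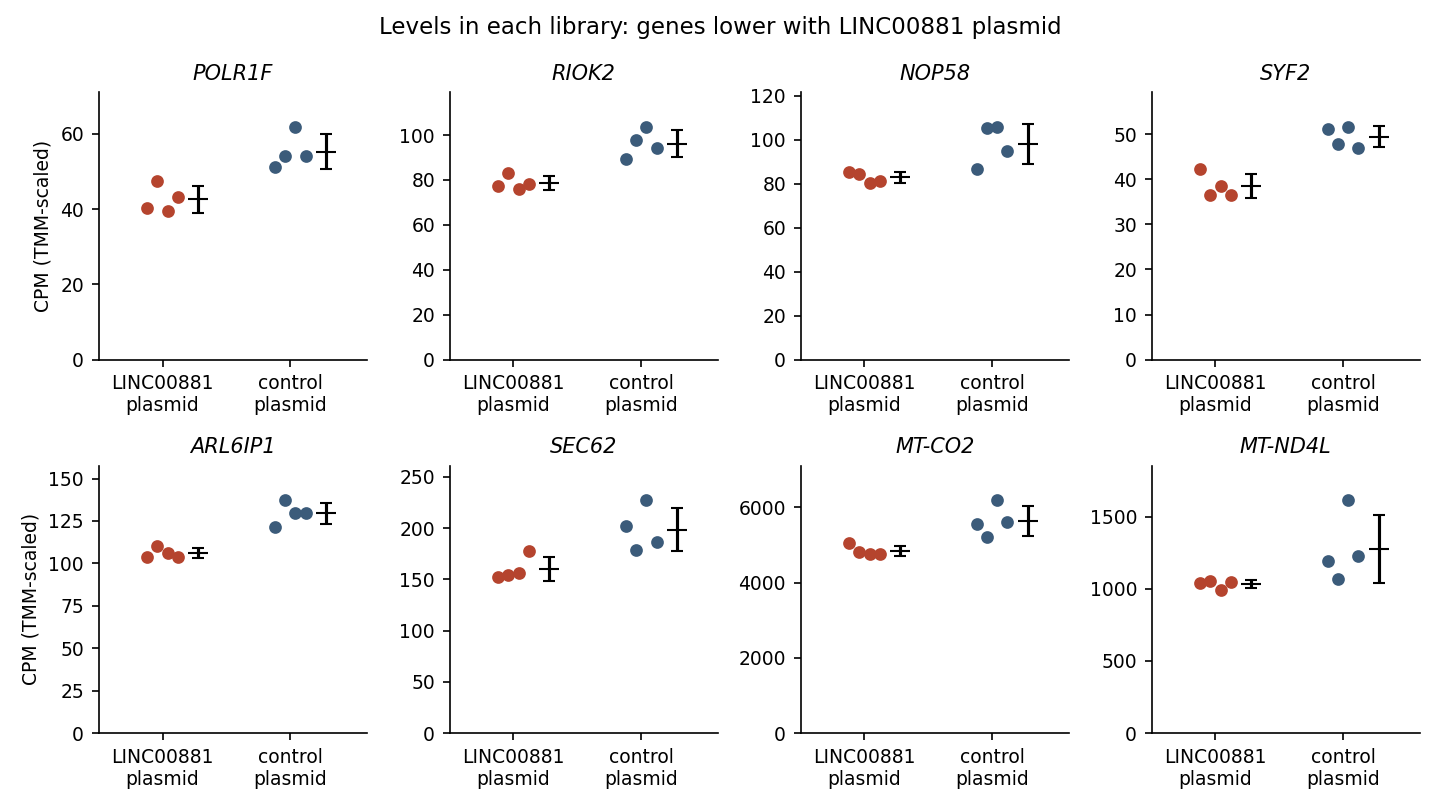
TMM-scaled CPM (y axis, from 0) of POLR1F, RIOK2, NOP58, SYF2, ARL6IP1, SEC62, MT-CO2 and MT-ND4L in each of the 4 LINC00881 plasmid libraries (red) and the 4 control plasmid libraries (blue), with the mean and SD of each group in black. All red points lie below all blue points in every panel, with the narrowest gap for SEC62 at 177.6 against 179.0 CPM.

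Of 154 splicing factor genes 5 were higher and 21 lower (3.25% and 13.6%, against 5.87% and 6.23% of all genes tested). With the offsets 8 were higher and 11 lower, where 4% and 5.85% of all genes were. In the fit without offsets, the lower count was 12, 11 and 12 without LINC00881 plasmid replicate 1, LINC00881 plasmid replicate 3 and control replicate 3. SYF2, a protein of the catalytic spliceosome, kept its size in both fits. It stood at 42.2, 36.6, 38.6 and 36.4 CPM against 51.1, 47.9, 51.6 and 46.9 CPM, well separated (log2 fold change -0.36, standard error 0.08, adjusted p = 0.0105 by DESeq2; -0.34 with the offsets). CLK1 and CLK4, kinases that phosphorylate SR proteins, were lower by 0.25 (standard error 0.08) and 0.38 (standard error 0.11) on the log2 scale, while SRPK3, the muscle-specific SR protein kinase gene, stood higher at 7.27, 8.21, 7.24 and 7.21 CPM against 4.23, 6.81, 3.57 and 5.62 CPM (log2 fold change 0.53, standard error 0.16). SRPK3 overlaps PLXNB3 on the same strand. SNRPA, a protein of the U1 snRNP, was also higher, at 21.4, 23.5, 23.1 and 21.8 CPM against 18.7, 19.5, 15.1 and 16.5 CPM (log2 fold change 0.36, standard error 0.10). Exons of SNRPA overlap a gene on the other strand.

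At the endoplasmic reticulum, 7 of 64 genes for translocation, membrane insertion and shaping were higher (10.9%) and 8 lower (12.5%). Of all genes tested, 5.87% were higher and 6.23% lower. In this list 3 were higher without LINC00881 plasmid replicate 3, and 4 and 12 lower without control replicates 3 and 2. ARL6IP1, which encodes a protein that shapes its tubules, stood at 104.0, 110.5, 106.3 and 103.6 CPM against 121.6, 137.1, 129.7 and 129.6 CPM, with a clear gap (log2 fold change -0.29, standard error 0.06, adjusted p = 0.00869 by DESeq2; -0.22 with the offsets). SEC62, a partner of the protein-conducting channel, stood at 152.1, 154.8, 155.8 and 177.6 CPM against 201.8, 179.0, 227.1 and 186.5 CPM, where LINC00881 plasmid replicate 4 nearly met control replicate 2 (log2 fold change -0.31, standard error 0.08). EMC2, a subunit of a membrane insertase, was lower by 0.30 (standard error 0.07), and missed the cutoff with the offsets (-0.12). PDIA4, a protein disulfide isomerase gene, was higher, at 114.5, 107.7, 115.9 and 101.7 CPM against 79.0, 99.9, 80.2 and 93.4 CPM (log2 fold change 0.32, standard error 0.08, adjusted p = 0.047 by DESeq2; 0.26 with the offsets). Exons of SEC62 overlap an unnamed transcript on the other strand, and ARL6IP1 shares exonic bases with a transcript of its own strand.

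Heat shock and immediate early genes had calls mostly on the lower side. Of 39 heat shock and chaperone genes 1 was higher (2.56%) and 9 lower (23.1%), and 1 and 6 with the offsets. The lower count dropped to 3 without LINC00881 plasmid replicate 3 and 5 without replicate 2 or 4. Among the lower genes was CCT8, a subunit of the chaperonin that folds actin and tubulin, at 317.2, 306.2, 305.8 and 294.4 CPM against 324.3, 376.7, 377.0 and 346.8 CPM (log2 fold change -0.22, standard error 0.07). Of 32 immediate early genes 1 was higher (3.12%) and 8 lower (25%). With the offsets these numbers were 0 and 8, and without LINC00881 plasmid replicate 2 they were 3 and 5. KLF10, a transcription factor gene induced by TGF-beta, stood at 13.8, 10.7, 10.9 and 13.7 CPM against 22.9, 11.7, 18.1 and 16.4 CPM, with overlap through control replicate 2, and was lower by 0.48 (standard error 0.16). JUN, a subunit of the AP-1 factor, was lower by 0.28 (standard error 0.10), and PHLDA1, a regulator of apoptosis, by 0.21 (standard error 0.07). NFE2L2, the master regulator gene of the antioxidant response, stood at 100.9, 92.4, 95.4 and 96.7 CPM against 113.8, 110.6, 120.3 and 115.8 CPM, with no overlap (log2 fold change -0.26, standard error 0.06, adjusted p = 0.0216 by DESeq2; -0.25 with the offsets). Of 24 genes of the integrated stress response 0 were higher and 2 lower (8.33%). The fits that left out a library gave 0 to 8 lower, with 8 without control replicate 2. Of 17 p53 targets 0 were higher and 2 lower (11.8%). Of 16 genes of nucleic acid sensing and the interferon response 1 was higher (6.25%) and 0 lower. These are small counts in short lists, beside 5.87% higher and 6.23% lower of all genes tested. MCL1, an antiapoptotic gene, was lower by 0.17 (standard error 0.06). Exons of PHLDA1 and NFE2L2 overlap genes on the other strand.

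The zinc finger genes of the ZNF series, most of which encode DNA-binding repressors, had 8 higher and 44 lower members of 454. These shares were 1.76% and 9.69%, against 5.87% and 6.23% of all genes tested. With the offsets 12 were higher and 34 lower, where 4% and 5.85% of all genes were. The median log2 fold change was -0.05, and -0.03 with the offsets, against 0.00 and -0.01 over all genes. Without offsets the lower count was 71 without control replicate 2, 28 without control replicate 3, and 24, 20 and 24 without LINC00881 plasmid replicates 1, 2 and 3. ZNF146 stood at 152.3, 145.9, 148.7 and 145.3 CPM against 169.6, 171.0, 190.7 and 173.7 CPM, with tight groups and a gap (log2 fold change -0.25, standard error 0.06, adjusted p = 0.0216 by DESeq2). ZNF800 was lower by 0.43 (standard error 0.11), and ZNF281, a factor of the pluripotent state, by 0.28 (standard error 0.07). Against this, ZNF691 was higher by 0.33 (standard error 0.11). ZNF146 exons overlap ZNF565 on the other strand.

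Chromatin proteins were examined because some long noncoding RNAs bind them. SMARCA4, which encodes the BRG1 ATPase of the SWI/SNF complex, stood at 139.7, 140.8, 147.1 and 135.1 CPM with LINC00881 plasmid, against 142.6, 122.1, 110.9 and 136.5 CPM with control plasmid. The groups overlapped, with control replicate 1 above 3 of the LINC00881 plasmid libraries and control replicate 3 the lowest. It did not pass, at a log2 fold change of 0.14 with a standard error of 0.08 (adjusted p = 0.477 by edgeR), and at -0.02 with the length and GC offsets. Of the bases of its longest transcript 61.4% are G or C. Of 8 chromatin remodeling proteins that the study names among its predicted LINC00881 partners, 1 was lower (12.5%) and 0 higher. The 1 was BAZ1A, a subunit of ISWI remodelers, at 50.5, 49.2, 52.8 and 48.5 CPM against 54.6, 60.6, 59.1 and 55.1 CPM (log2 fold change -0.19, standard error 0.07). An unnamed transcript overlaps it on the other strand. RNA levels do not measure the predicted binding. The study also reports that LINC00881 coprecipitated with SMARCA4, and by qPCR that LINC00881 regulated SMARCA4. Over 50 genes of SWI/SNF and other remodelers 0 were higher and 5 lower (10%), and 1 and 9 with the offsets. The lower count was 2 without control replicate 3 and 10 without control replicate 2. CHD1, a remodeler gene of active promoters, stood at 71.9, 72.9, 73.7 and 80.3 CPM against 87.1, 83.0, 97.8 and 87.4 CPM, without overlap (log2 fold change -0.25, standard error 0.07; -0.18 with the offsets). Of 43 genes for histone deacetylases, sirtuins and methyltransferases 5 were higher and 1 lower (11.6% and 2.33%, against 5.87% and 6.23% of all genes tested). With the offsets 2 were higher and 6 lower. Over the fits that left out a library, 2 to 7 were higher and 1 to 9 lower. HDAC1 was higher by 0.18 (standard error 0.07) and SIRT1 lower by 0.20 (standard error 0.07), and both held.

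Of 27 cardiac transcription factor genes, which specify heart muscle, 0 were higher and 1 was lower. These shares were 0% and 3.7%, against 5.87% and 6.23% of all genes tested. With the offsets 0 were higher and 4 lower, where 4% and 5.85% of all genes were. The 1 gene, ISL1, which marks progenitors of the second heart field and is switched off as they mature, stood at 108.8, 105.9, 103.5 and 109.9 CPM against 148.9, 107.6, 137.7 and 127.3 CPM. The LINC00881 plasmid libraries were alike, and control replicate 2 lay among them (log2 fold change -0.28, standard error 0.08; -0.26 with the offsets). Of 12 tested neighbors of LINC00881 on chromosome 3, 0 were higher and 1 lower (8.33%, against 6.23% of all genes tested). The 1 was PTX3, which encodes a secreted pentraxin of innate immunity, at 1.63, 1.5, 1.22 and 1.59 CPM against 1.31, 1.95, 2.87 and 2.81 CPM. Control replicate 1 was below most LINC00881 plasmid libraries, the exons overlap VEPH1 on the other strand, and the log2 fold change of -0.60 (standard error 0.25) lost its call without LINC00881 plasmid replicate 3 (-0.51), control replicate 3 (-0.48) or control replicate 4 (-0.48). Of 118 LINC genes tested 3 were higher (2.54%), LINC00881 among them, and 5 were lower (4.24%). Only LINC00881 held on the higher side and LINC02062 on the lower side, where LINC02062 averaged 0.681 CPM with LINC00881 plasmid and 1.47 CPM with control plasmid.

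Other genes with the largest changes or smallest p among those whose groups did not overlap had no common list. On the higher side, RNF157, a ubiquitin ligase gene of neurons, stood at 6.61, 5.3, 7.24 and 6.49 CPM against 4.33, 3.82, 4.86 and 3.52 CPM (log2 fold change 0.65, standard error 0.15), with an antisense gene over its exons. CNTNAP1, the contactin-associated protein gene of axons, was higher by 0.50 (standard error 0.13), and CNN2, a calponin gene of motile cells, by 0.30 (standard error 0.07), both with genes on the other strand. On the lower side, TM4SF1, a membrane protein gene of endothelial and cancer cells, stood at 8.49, 7.59, 8.88 and 6.85 CPM against 13.0, 11.3, 11.3 and 10.8 CPM, a wide gap for its level (log2 fold change -0.54, standard error 0.12), with an antisense gene over its exons. DNTTIP2, which encodes a nucleolar protein, stood at 128.7, 123.3, 121.1 and 121.8 CPM against 143.6, 156.2, 171.6 and 147.7 CPM. It had the smallest DESeq2 adjusted p on the lower side among the genes named here (0.00667, with a log2 fold change of -0.32 and -0.26 with the offsets in edgeR). ESF1, another nucleolar protein gene, was lower by 0.32 (standard error 0.08), at 45.6, 49.5, 45.5 and 47.8 CPM against 53.8, 61.9, 66.2 and 53.2 CPM. The plot of list members past the cutoff sets the lists side by side.

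**Figure D5:**
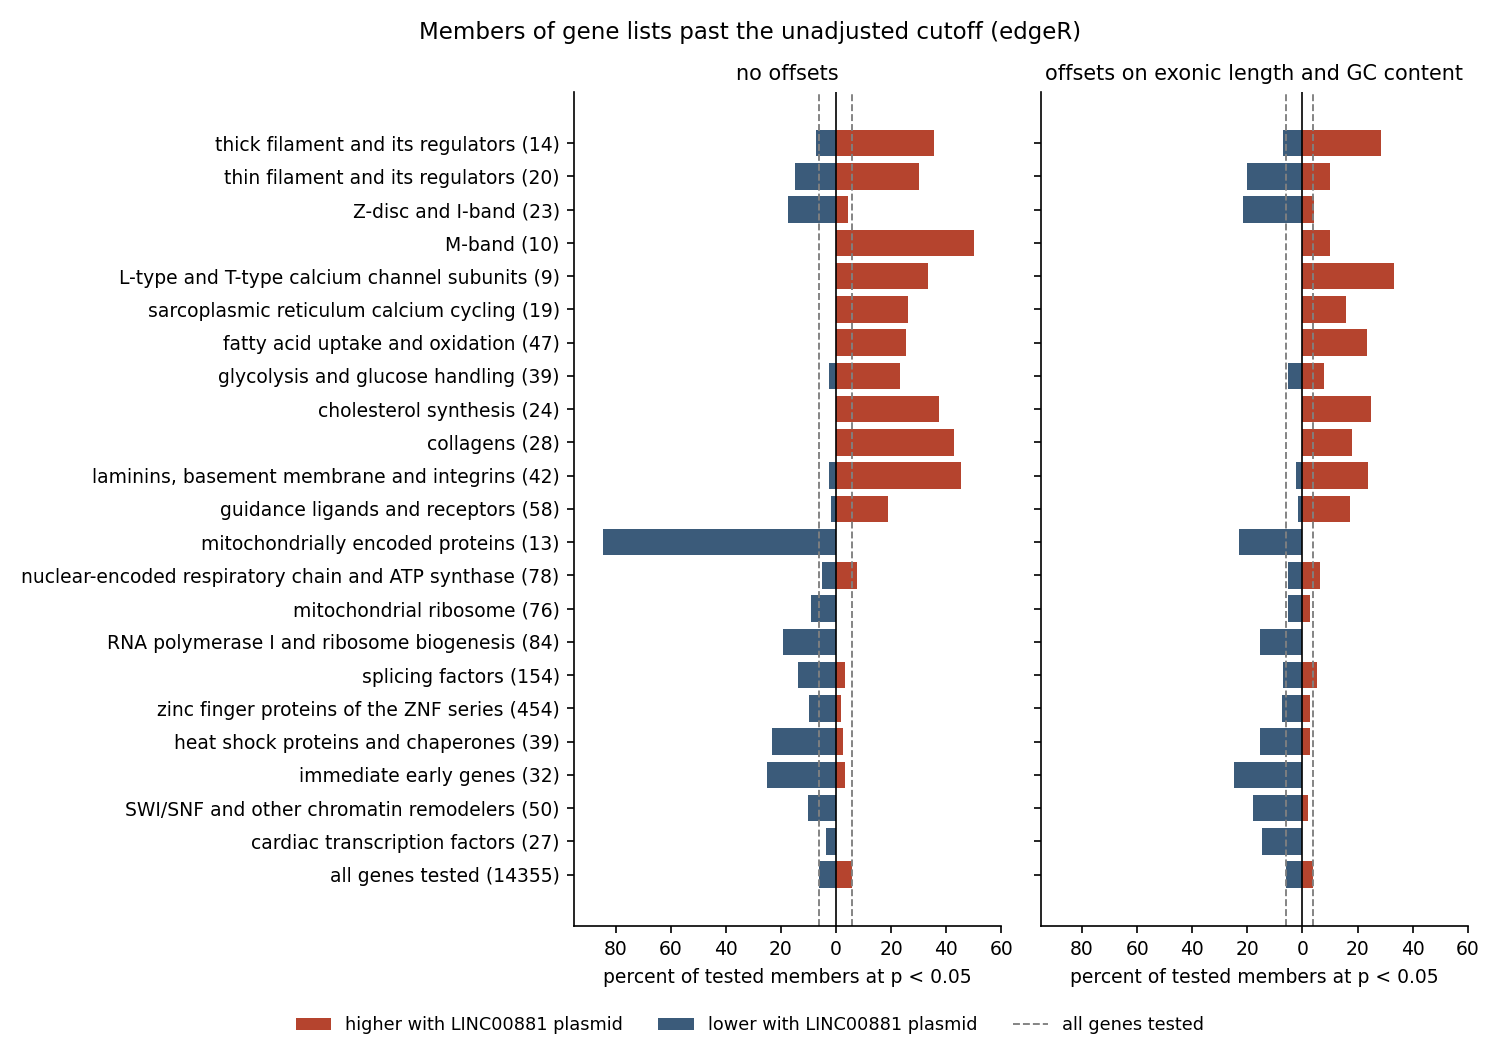
Percent of tested members of each gene list (x axis) at an unadjusted p under 0.05 by edgeR, higher with LINC00881 plasmid in red to the right and lower in blue to the left, without offsets (left panel) and with offsets on exonic length and GC content (right panel). Numbers in brackets are members tested without offsets, and dashed lines give the shares over all genes tested (5.87% and 6.23% without offsets, 4% and 5.85% with them). Calcium channel subunits keep 3 of 9 members higher in both panels, while mitochondrially encoded proteins have 11 of 13 members lower without offsets and 3 with them.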

How the data were processed

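The authors aligned paired reads from a stranded total RNA kit (1000 ng input, 11 cycles) with STAR 2.7.3a to the Gencode release named in their methods and deposited unnormalized read counts for 59385 gene symbols. The name of the deposited count table gives featureCounts without strand. The 8 overexpression columns were used, at 9833533 to 16415025 counts per library.

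Counts were filtered (filterByExpr), scaled (TMM) and tested with edgeR 4.0.16 (R 4.3.3; robust quasi-likelihood F-test, 2-sided), which left 14355 genes. The study's cutoff of 0.05 was applied to unadjusted p. Positions, length and GC content came from GENCODE release 29, matched for 67.7% of symbols and 94.6% of genes tested. Exonic length was that of all annotated exons of a gene joined, and GC content was that of its longest transcript. The offsets used splines with 5 degrees of freedom. Alternatives were DESeq2 1.42.0, limma 3.58.1 (voom with sample weights), DESeq2 size factors, other filters, the replicate block, the offsets, and each library left out. No 2 replicates were alike within sampling noise. The code was tested on simulated data with 200 changed genes. Promoter windows came from RefSeq (GRCh38.p14).

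The genes named were those of a fixed rule: LINC00881, SMARCA4, those with the smallest p or largest change among groups without overlap, those that held, and up to 4 members a direction of each list. Members and lists were chosen with earlier results of these data known. MYH7, MT-RNR1 and MT-RNR2 fall outside the rule and were named after their values were seen. Some genes that the rule takes are left out of the text.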

Additional observations from a re-analysis of the deposited data

Results flagged for a closer look

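Each group of 4 libraries was examined for a single library far from the other 3, over 20 library measures and 68 genes. Of 176 groups, 9 had such a library, where chance gives about 1 in 20, and 6 of these were in the control group. Control replicate 4 had a summed fibroblast marker level of 794.6 CPM, against 723.5 to 734.7 CPM in the other controls, and an NID2 level of 318.4 CPM, against 259.4 to 266.3 CPM. Control replicate 3 had 60 CPM of CRAT and 19.5 CPM of PPARD, where the other controls had 70.8 to 72.7 CPM and 25 to 25.7 CPM. Control replicate 2 had 12.6 CPM of EBP, against 8.52 to 9.21 CPM in the other controls. With LINC00881 plasmid, replicate 2 had 8.21 CPM of SRPK3, against 7.21 to 7.27 CPM in the others, and replicate 4 had 177.6 CPM of SEC62, against 152.1 to 155.8 CPM. The growth hormone gene cluster had 1 count in LINC00881 plasmid replicate 4 (7.25e-06% of its counts) and 1 in control replicate 2 (7.41e-06%), and 0 in the other libraries, where any lone count would stand apart in this way.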

How the results depend on the processing

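The total of 1737 genes stayed within 1.5 times under every alternative with all 8 libraries, with limma-voom the highest at 2605, and ran from 1010 to 2606 when single libraries were left out (468 to 1276 higher, 542 to 1330 lower). The higher genes numbered 1314 when all genes with at least 1 count were tested, 543 with length and GC offsets, and 1353 with limma-voom. After adjustment, edgeR's 1 gene became 56 with all genes with at least 1 count, 0 among protein-coding genes alone, 7 with the replicate block and 11 with the block and the length and GC offsets; DESeq2 gave 57 and limma-voom 217, and leaving out single libraries gave 1 to 261. The rho with GC content was 0.618 among the genes that averaged 100 counts or more, 0.361 with limma-voom, 0.0173 with length and GC offsets and 0.0177 with the replicate block as well, and ran from 0.271 to 0.595 with single libraries left out. SMARCA4 reversed to -0.02 with length and GC offsets, with or without the replicate block. It passed the unadjusted cutoff without control replicate 1 (0.19) and with all genes with at least 1 count (0.15). The other 66 genes followed kept their direction in every alternative, which was in part bound to happen, since many were named because they held. The replicate block gave 1920 calls, but same-numbered libraries did not deviate together (correlations -0.092, 0.035, 0.048 and 0.133), so the numbers do not pair them. The causes were not tested.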
